A study of Homo sapiens with 24 samples.

Results

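The 10 genes described here control the first decision point of the cell cycle: the G1 cyclins CCND1, CCND3, CCNE1 and CCNE2, the kinases CDK4 and CDK6, the kinase inhibitors CDKN1A, CDKN1B and CDKN2B, and RB1. They were taken by symbol from a table of raw counts for 35993 genes, and all 10 had a row. The 24 RNA libraries came from J82 and RT-112, established human lines of bladder cancer. Parental cells of either line were sequenced beside its derived lines CD44 Low, CD44 High and CD44v6, with 3 biological replicates in each of the 8 groups. The receptor CD44 sits on the cell surface, and its isoforms with the variant exon v6 are called CD44v6. The labels describe CD44 Low and CD44 High by the level of the receptor, and CD44v6 by high CD44v6. They give no treatment, time point or culture density, and they do not say how the derived lines were made or whether each is 1 clone.

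Cyclins of the D type bind CDK4 or CDK6, and cyclins of the E type bind CDK2. These kinases phosphorylate RB1, which otherwise holds E2F transcription factors inactive, and the cell then enters S phase. CDKN2B (p15) binds CDK4 and CDK6 and blocks their pairing with cyclin D. CDKN1A (p21, a target of p53) and CDKN1B (p27) bind cyclin-kinase complexes and inhibit CDK2 in particular. In urothelial cancer this control is often altered through CCND1, RB1 or the locus on the short arm of chromosome 9 that holds CDKN2A and CDKN2B.

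The libraries held 16752825 to 24419670 counts. CD44 itself averaged 445 ± 46.5 CPM (SD, n = 3) in parental J82 and 279 ± 27.9 in CD44 Low, against 727 ± 32.0 in CD44 High and 800 ± 242 in CD44v6. The corresponding RT-112 levels were 317 ± 27.2, 141 ± 18.2, 420 ± 70.0 and 448 ± 69.0 CPM. CPM gives counts relative to the TMM-adjusted size of the library. Of 10 epithelial and urothelial markers, all were detected in every RT-112 group, while 2 or 3 were at 0 in each J82 group. KRT8 was high in both parental groups (4631 ± 389 CPM in J82, 2436 ± 213 CPM in RT-112), but EPCAM was at 1.79 ± 0.440 CPM in parental J82 against 330 ± 20.5 CPM in parental RT-112. The leukocyte markers PTPRC and CD3E were at 0 in both parental groups, and LYZ was below 1 CPM in all 8 groups. CD68, a macrophage marker, was at 166 ± 12.9 CPM in parental J82 against 11.7 ± 0.899 in parental RT-112. Over the J82 libraries CD68 ran from 152 to 175 CPM in parental cells, 77.0 to 121 in CD44 Low, 141 to 216 in CD44 High and 104 to 184 in CD44v6. It was thus lowest in CD44 Low, as CCND1 was. The summed level of 4 fibroblast markers averaged 23.1 CPM in parental J82 and 178 CPM in parental RT-112. That sum was highest in CD44 Low of both lines, at 43.9 CPM in J82 and 235 CPM in RT-112. Endothelial markers summed to at most 4.19 CPM in any library and erythroid markers to at most 0.390 CPM. The part of these markers in the results below was not tested.

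**Figure D1:**
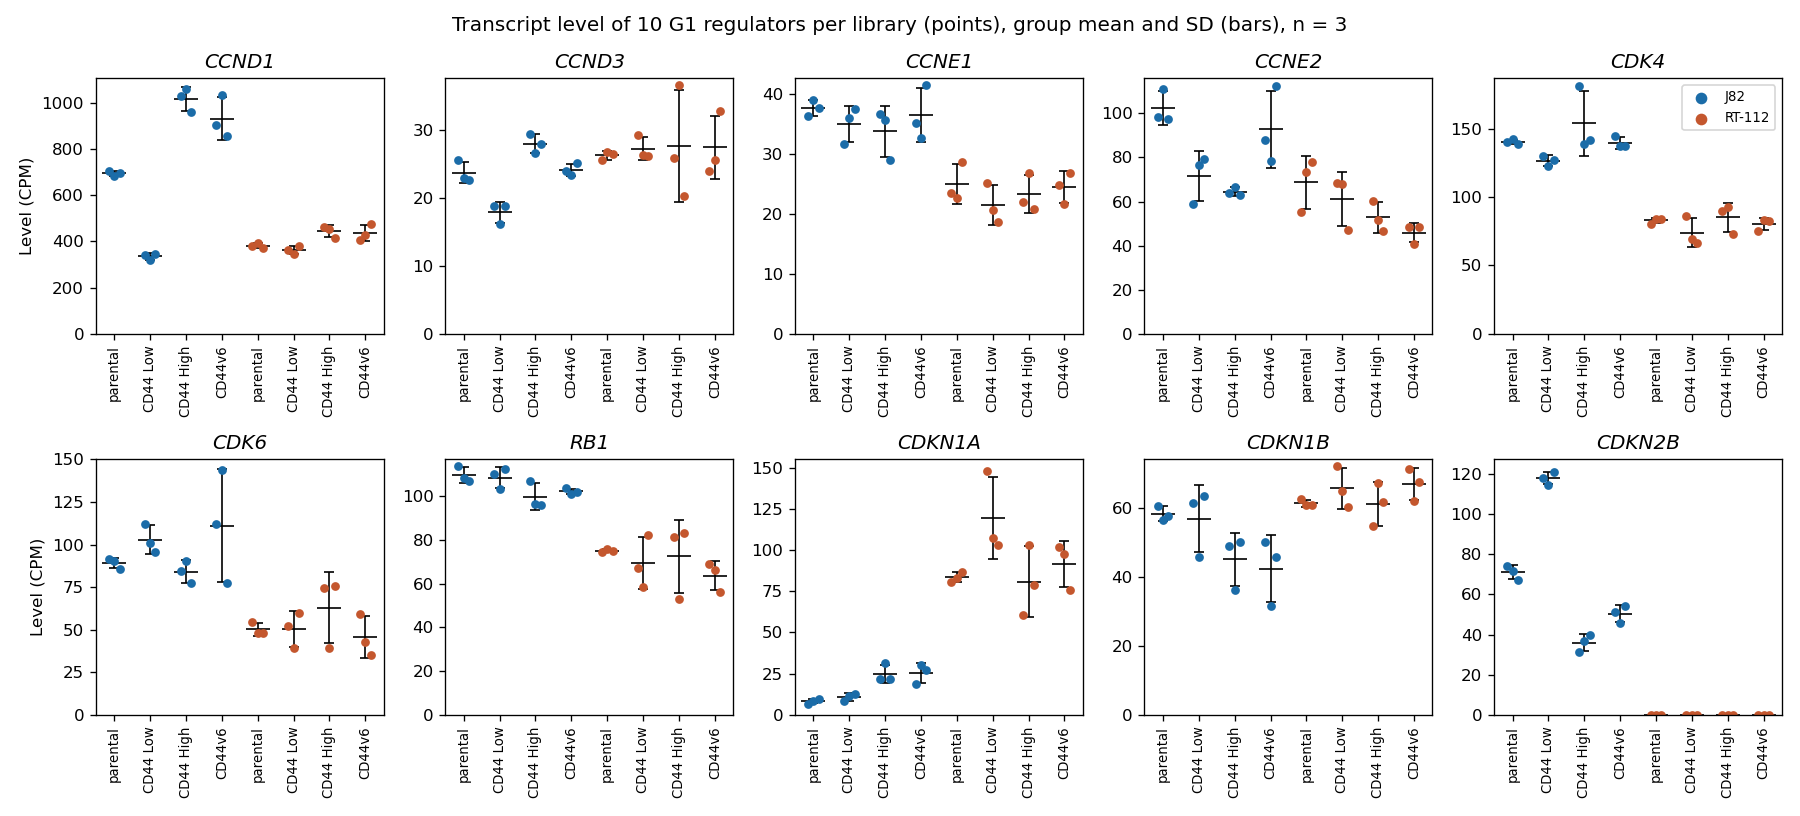
Level in CPM of each of the 10 genes (vertical axis, starting at 0) in every library (points), with the group mean and SD (black bars, n = 3), for the 4 groups of J82 (blue) and of RT-112 (orange). In J82 the CCND1 points of CD44 Low lie between 319 and 348 CPM and those of CD44 High between 960 and 1062 CPM, while CDKN2B runs the other way and is at 0 in all 12 RT-112 libraries.

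The parental lines were compared first, to set the level of each gene before the CD44-defined lines. Per base of exon, CCND1 was the most abundant of the 10 in both, at 158 ± 2.45 CPM per kilobase in J82 and 86.8 ± 2.52 in RT-112. CDK4 came second, at 67.6 ± 0.793 and 39.9 ± 0.965 CPM per kilobase. The lowest genes in J82 were CDKN1A (3.28 ± 0.518), CCND3 (6.03 ± 0.400) and CDK6 (7.60 ± 0.258 CPM per kilobase). In RT-112 CDKN1A ranked behind only CCND1 and CDK4, at 33.3 ± 1.23 CPM per kilobase. In J82 the neighbours RB1 (21.9 ± 0.707) and CDKN1B (21.9 ± 0.814) did not differ beyond their spread, nor did CCNE1 (18.2 ± 0.643) and CDKN2B (17.6 ± 0.841 CPM per kilobase). Exon lengths came from GENCODE 29 and may differ from those behind the counts.

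Between the parental lines 8 of the 10 genes passed the test at an adjusted p under 0.05, 7 higher in J82 and 1 lower. Of all 17438 genes 62.0% were called, 31.0% in either direction. CDKN1A differed most among the 9 genes with counts in both lines. Its parental J82 libraries were at 6.85, 8.44 and 9.43 CPM and its parental RT-112 libraries at 80.7, 83.1 and 86.8 CPM. These ranges are far apart, and J82 was 10.2-fold lower (-3.35 on the log2 scale, SE 0.23, adjusted p = 3.76e-11). CCND1 (0.86), CDK6 (0.83), CDK4 (0.76), CCNE1 (0.59), CCNE2 (0.57) and RB1 (0.55 on the log2 scale) were higher in J82, with adjusted p from 3.01e-09 to 0.00363. CCND3 (-0.15, adjusted p = 0.418) and CDKN1B (-0.08, adjusted p = 0.685) did not pass.

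CDKN2B, the p15 inhibitor of CDK4 and CDK6, had a count of 0 in all 12 RT-112 libraries. In parental J82 it was at 71.0 ± 3.40 CPM. Against the limit that 3 counts per library set in parental RT-112 (0.149 CPM), it was at least 477-fold higher in J82. The absence of counts extended to the nearest coding genes kept on either side, those with at least 100 counts over the 24 libraries. CDKN2A, which encodes the p16 inhibitor and the p14ARF protein, and MTAP, an enzyme of methionine salvage, had 0 counts in every RT-112 library but 2140 to 4351 and 2249 to 3127 counts in the J82 libraries. IFNE and DMRTA1 were also at 0 in RT-112 (1 to 18 and 65 to 229 counts in J82), as was the antisense RNA CDKN2B-AS1. IFNE was thus near the floor in J82 too. Farther out, KLHL9 on one side (393 to 843 counts) and ELAVL2 on the other (173 to 364 counts) were detected in all 12 RT-112 libraries. Beyond KLHL9, HACD4 had 0 to 2 counts in RT-112 and 188 to 328 in J82. These neighbours were chosen after their values were seen. IFNE, MTAP, CDKN2A and DMRTA1 reached 100 counts through J82 alone, and genes with few counts in both lines were left out. The run of genes absent from RT-112 therefore depends in part on that limit. CDKN2B could not be tested within RT-112, nor for a difference in response between the lines.

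**Figure D2:**
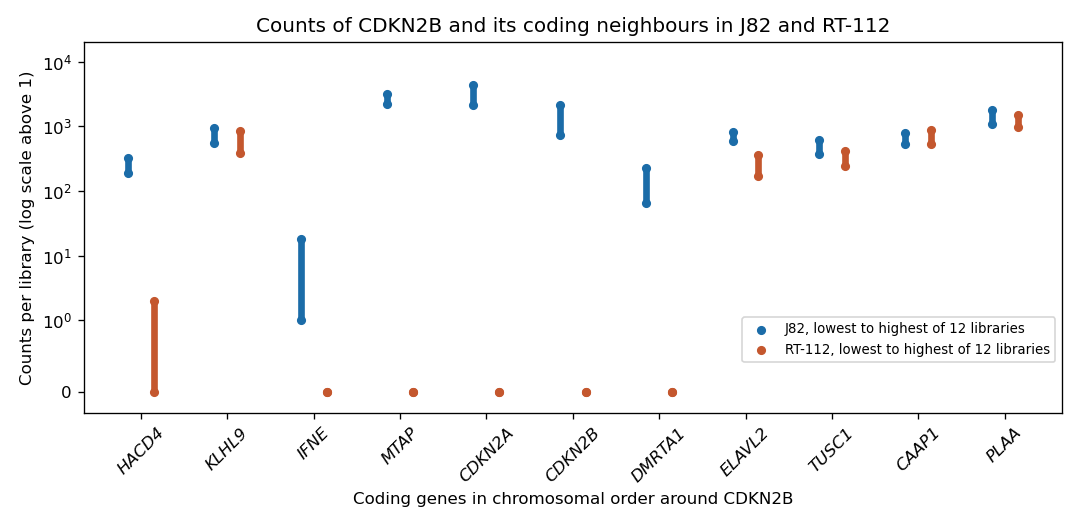
Counts per library (vertical axis, linear up to 1 and logarithmic above) of CDKN2B and the 5 nearest coding genes on each side with at least 100 counts in all, in chromosomal order (horizontal axis). Bars run from the lowest to the highest of 12 libraries. From IFNE to DMRTA1 all RT-112 values are at 0, whereas KLHL9 and ELAVL2 have counts in both lines. The neighbours at 0 in RT-112 reach 100 counts through J82 alone.

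CD44 High was compared with CD44 Low to ask which of these genes differ between the extremes of CD44. In J82, 4 of the 10 genes were called: CCND1, CCND3 and CDKN1A were higher in CD44 High, and CDKN2B was lower. Of all 15951 genes tested in J82, 15.7% were called (8.83% higher, 6.90% lower). In RT-112 1 of 9 genes tested, CCND1, was called as higher, against 16.0% of 15645 genes (9.01% higher, 7.02% lower). The median log2 fold change of the 10 genes was -0.08 in J82 and of the 9 genes 0.10 in RT-112, beside -0.02 and 0.02 over all genes tested, so the set as a whole had no common direction.

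**Figure D3:**
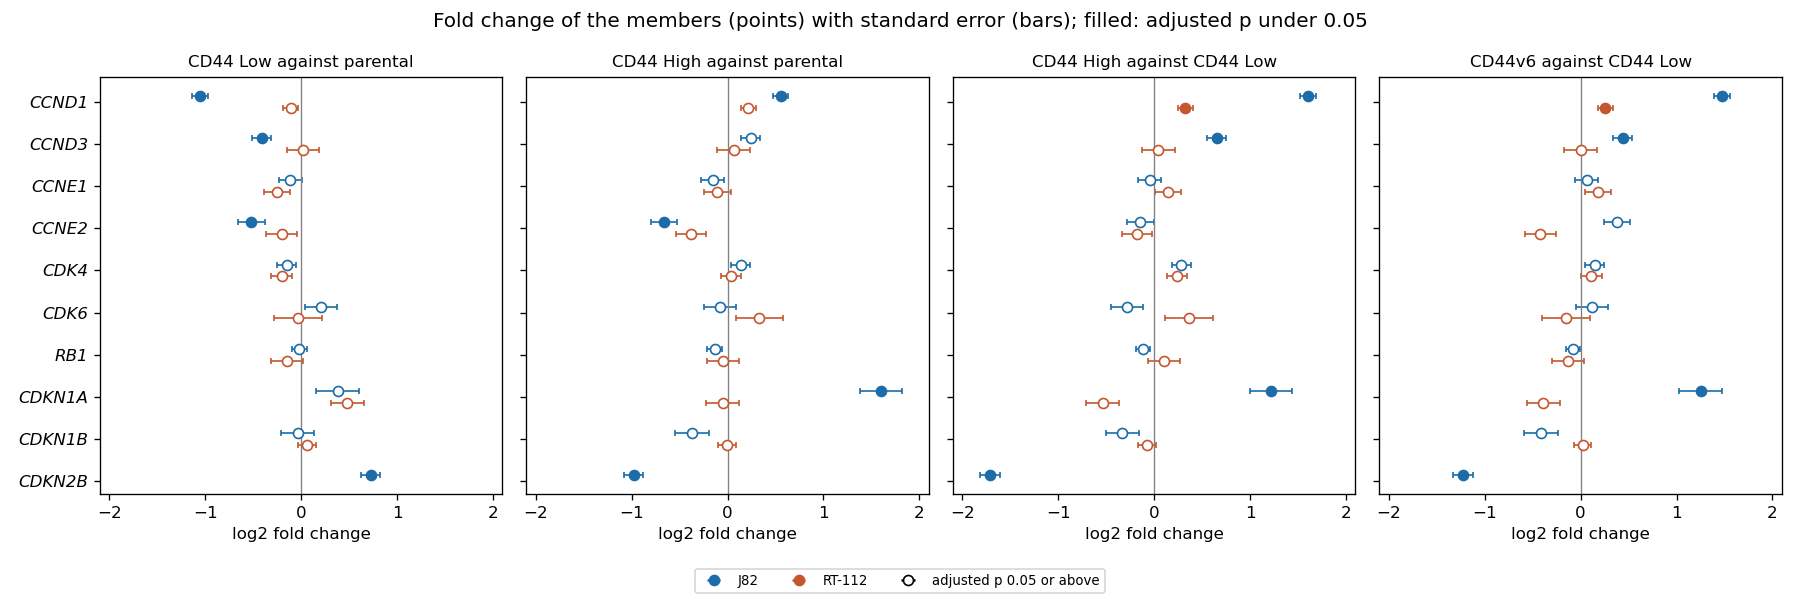
Log2 fold change (horizontal axis) of the 10 genes in 4 comparisons, with standard error (bars), for J82 (blue) and RT-112 (orange). Filled points have an adjusted p under 0.05. CCND1 and CDKN2B move to opposite sides in each J82 panel, and CCND1 in the 2 comparisons with CD44 Low holds the only filled RT-112 points.

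CCND1 encodes cyclin D1, the partner of CDK4 and CDK6 that rises with mitogen signals. The J82 libraries were at 705, 684 and 697 CPM in parental cells and at 341, 319 and 348 CPM in CD44 Low. They were at 1030, 1062 and 960 CPM in CD44 High and at 907, 1034 and 856 CPM in CD44v6. The CD44 Low libraries lay below, and the CD44 High and CD44v6 libraries above, every parental library. CD44 High exceeded CD44 Low by 1.60 on the log2 scale (3.04-fold, SE 0.08, adjusted p = 2.15e-07, edgeR's quasi-likelihood test with Benjamini-Hochberg adjustment).

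CCND1 also differed from parental J82 cells in every derived line. It fell by 1.05 on the log2 scale in CD44 Low (SE 0.08, adjusted p = 4.6e-05), rose by 0.55 in CD44 High (adjusted p = 0.00344) and rose by 0.42 in CD44v6 (adjusted p = 0.0204). CD44v6 exceeded CD44 Low by 1.48 (adjusted p = 5.27e-07). CD44v6 and CD44 High did not differ beyond their spread (-0.13, SE 0.08, adjusted p = 0.612), and their ranges overlapped. The increase in CD44v6 against parental cells was the least stable of these. It lost its call without any 1 of the 3 parental replicates or without CD44v6 replicate 2 (adjusted p up to 0.108), and with only the 6 libraries compared (adjusted p = 0.0757).

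In RT-112 CCND1 moved the same way over a narrower range. The libraries were at 381, 394 and 372 CPM in parental cells and at 363, 347 and 380 CPM in CD44 Low. They were at 464, 454 and 415 CPM in CD44 High and at 408, 428 and 476 CPM in CD44v6. All CD44 High and CD44v6 libraries lay above all CD44 Low libraries. The log2 fold change against CD44 Low was 0.32 (1.25-fold, SE 0.08, adjusted p = 0.0165) in CD44 High and 0.26 (SE 0.08, adjusted p = 0.0437) in CD44v6. The first lost its call without CD44 Low replicate 1 or 2 or CD44 High replicate 1 (adjusted p up to 0.0770). The second lost it without CD44 Low replicate 1 or 2 or CD44v6 replicate 2 or 3 (up to 0.159), without a filter (0.0672) and with a replicate block (0.0721). Both lost it when only the 6 libraries compared were fitted (0.0681 and 0.0643). No RT-112 group passed against parental cells (adjusted p = 0.506, 0.292 and 0.402).

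The response of CCND1 was larger in J82, by a test of the difference itself over all 24 libraries. For CD44 High against CD44 Low the J82 change exceeded the RT-112 change by 1.31 on the log2 scale (SE 0.11, adjusted p = 1.2e-07). For CD44v6 against CD44 Low the difference was 1.21 (adjusted p = 8.61e-07), and for CD44 Low against parental cells -0.98 (adjusted p = 0.000261). These 3 comparisons share the CD44 Low libraries. For CD44 High and CD44v6 against parental cells no difference between the lines was detected (0.33, adjusted p = 0.284, and 0.23, adjusted p = 0.345).

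The genes most like CCND1 were EPHB2, an ephrin receptor, and CDCP1, a transmembrane glycoprotein. Likeness was Pearson's correlation of log2 CPM over the 24 libraries, with each line centred on its own mean, among 9611 genes whose mean log2 CPM was 3 or more. It was 0.981 for EPHB2 and 0.980 for CDCP1 (0.988 and 0.983 within J82, 0.827 and 0.950 within RT-112). These are descriptions: the libraries fall into groups of 3, so they are not independent points.

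CCND3, which encodes cyclin D3 and shares the partners of cyclin D1, changed in J82 only over a narrow range and from a lower level. Its libraries were at 25.6, 23.0 and 22.7 CPM in parental J82, at 18.8, 16.1 and 18.8 CPM in CD44 Low, at 29.5, 26.7 and 27.99 CPM in CD44 High and at 24.1, 23.4 and 25.2 CPM in CD44v6. The CD44 Low libraries lay below all others of the line. CD44 High exceeded CD44 Low by 0.65 on the log2 scale (1.57-fold, SE 0.10, adjusted p = 0.000823). CD44v6 exceeded CD44 Low by 0.44 (adjusted p = 0.0159), a call lost without CD44 Low replicate 2 (adjusted p = 0.0696), with all 24 libraries in the fit (0.0796) and with the 6 libraries compared (0.122). The decrease in CD44 Low against parental cells (-0.41, adjusted p = 0.0342) held in only 1 of the 6 fits that left out a library, the one without CD44 Low replicate 3. In the others the adjusted p reached 0.159. It also failed without a filter (0.0643) and with all 24 libraries (0.115).

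In RT-112 CCND3 passed in none of the 6 comparisons, and its spread was wide in CD44 High, at 26.0, 36.7 and 20.4 CPM. The J82 change from CD44 Low to CD44 High exceeded that of RT-112 by 0.63 (SE 0.21), which did not pass (adjusted p = 0.0611). It passed without RT-112 CD44 High replicate 2 (0.89, adjusted p = 0.00270) or J82 CD44 Low replicate 3 (0.71, adjusted p = 0.0457). It also passed with a minimum mean of 50 counts (adjusted p = 0.0489) and in DESeq2 (0.0285).

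Of the E-type cyclins only CCNE2 gave a call within a line. CCNE2, cyclin E2, had its highest J82 mean in parental cells, whose libraries were at 98.5, 111 and 97.3 CPM. Those of CD44 Low were at 58.7, 76.5 and 79.5 CPM, those of CD44 High at 64.0, 66.8 and 62.9 CPM and those of CD44v6 at 87.7, 78.4 and 112 CPM. All CD44 Low and CD44 High libraries lay below all parental ones, while CD44v6 overlapped them. CCNE2 fell by 0.66 on the log2 scale in CD44 High (SE 0.14, adjusted p = 0.0218) and by 0.52 in CD44 Low (SE 0.14, adjusted p = 0.0476). Neither decrease was stable. The first lost its call in all 6 fits that left out a library (adjusted p up to 0.120). The second lost it in 5, all but the one without CD44 Low replicate 3 (up to 0.196), without a filter (0.0692) and with all 24 libraries (0.0592).

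In RT-112 CCNE2 fell short of the threshold in every comparison. CD44v6 libraries, at 48.6, 40.8 and 48.3 CPM, lay below all parental ones, at 55.2, 73.2 and 77.8 CPM (-0.62, SE 0.16, adjusted p = 0.101). DESeq2 called that difference (adjusted p = 0.0122), as did the fit on the 6 libraries compared (0.0148). For CD44v6 against CD44 Low the lines differed, with 0.38 in J82 and -0.42 in RT-112, and the difference of 0.79 passed (SE 0.23, adjusted p = 0.0364). Neither change was called within its line with all libraries. The J82 change was called without CD44v6 replicate 2 (0.50, adjusted p = 0.0331), and the RT-112 change without CD44 Low replicate 3 (-0.57, adjusted p = 0.0279). That difference lost its call in 7 of 12 fits: without J82 CD44 Low replicate 1 or 2, J82 CD44v6 replicate 3, RT-112 CD44 Low replicate 1 or 2, or RT-112 CD44v6 replicate 2 or 3 (adjusted p up to 0.0802). CCNE1, cyclin E1, passed in none of the 12 comparisons, and its libraries ran from 28.98 to 41.5 CPM in J82 and from 18.6 to 28.8 CPM in RT-112. CCNE2 overlaps INTS8 and NDUFAF6 on the opposite strand in GENCODE 29, and whether the counting used strand is not given in the sources used here.

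The kinases and RB1 passed in none of the 12 comparisons. CDK4 ran from 122 to 181 CPM in J82 and from 66.3 to 92.8 CPM in RT-112. CD44 High exceeded CD44 Low by 0.29 in J82 (SE 0.10, adjusted p = 0.0685), with no overlap, and by 0.24 in RT-112 (SE 0.11, adjusted p = 0.153), with overlap. The J82 difference passed in DESeq2 (adjusted p = 0.0428). The RT-112 difference passed without CD44 High replicate 3 (0.33, adjusted p = 0.0431). RB1, the substrate of these kinases, ran from 95.8 to 114 CPM in J82, where its highest library was 1.19 times its lowest, the smallest such ratio of the 10 genes. It ran from 52.9 to 82.9 CPM in RT-112. Its largest difference in J82 was -0.13 (SE 0.08, CD44 High against parental cells, adjusted p = 0.443).

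CDK6 calls turned on single libraries. Its J82 CD44v6 libraries were at 112, 144 and 77.2 CPM, and without replicate 3 CD44v6 exceeded parental cells by 0.53 (adjusted p = 0.0279), against 0.32 (adjusted p = 0.313) with it. In RT-112 CD44 High they were at 74.5, 39.1 and 75.4 CPM. For CD44v6 against CD44 High the lines differed by 1.12 (adjusted p = 0.0347) without RT-112 CD44 High replicate 2, and by 0.87 (SE 0.32, adjusted p = 0.398) with it.

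CDKN1A, the p21 inhibitor, rose in J82 CD44 High and CD44v6 and did not do so in RT-112. Its J82 libraries were at 6.85, 8.44 and 9.43 CPM in parental cells and at 8.25, 11.2 and 12.8 CPM in CD44 Low. They were at 21.9, 31.3 and 21.6 CPM in CD44 High and at 18.6, 30.5 and 27.5 CPM in CD44v6. Every CD44 High and CD44v6 library lay above every parental and CD44 Low library. The rise against parental cells was 1.60 on the log2 scale in CD44 High (3.03-fold, SE 0.22, adjusted p = 0.00269) and 1.63 in CD44v6 (3.10-fold, SE 0.22, adjusted p = 0.00367). Against CD44 Low it was 1.22 (adjusted p = 0.00236) and 1.25 (adjusted p = 0.00274). All 4 calls held in each fit that left out a library, with adjusted p up to 0.0436. CD44v6 and CD44 High did not differ beyond their spread (0.03, SE 0.21, adjusted p = 0.969), nor did CD44 Low and parental cells (0.38, SE 0.23, adjusted p = 0.348).

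In RT-112 CDKN1A was highest in CD44 Low, at 148, 108 and 103 CPM, against 80.7, 83.1 and 86.8 CPM in parental cells. CD44 High was at 60.5, 103 and 79.0 CPM and CD44v6 at 102, 97.8 and 76.0 CPM. CD44 Low lay above the parental range (0.48, SE 0.17, adjusted p = 0.151) and above the CD44v6 range (adjusted p = 0.141), and neither difference passed. The CD44 Low comparison with parental cells passed when only those 6 libraries were fitted (adjusted p = 0.0337). CD44 High was lower than CD44 Low by an amount just short of the threshold (-0.53, SE 0.17, adjusted p = 0.0521). That call was gained with a minimum mean of 50 counts (0.0418), in DESeq2 (0.0175), without CD44 High replicate 2 (-0.74, 0.0113) and without CD44 Low replicate 3 (-0.62, 0.0470).

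The lines differed in CDKN1A by a direct test. For CD44 High against CD44 Low the difference was 1.78 on the log2 scale (SE 0.30, adjusted p = 0.000648), and for CD44v6 against CD44 Low 1.63 (SE 0.30, adjusted p = 0.00176). Against parental cells it was 1.65 for CD44 High (SE 0.31, adjusted p = 0.0246) and 1.497 for CD44v6 (SE 0.31, adjusted p = 0.0508). The difference for CD44 High against parental cells lost its call in 6 of 12 fits: without J82 parental replicate 1 or 2, J82 CD44 High replicate 2, RT-112 parental replicate 2 or 3, or RT-112 CD44 High replicate 1 (adjusted p up to 0.0980). The difference for CD44v6 against parental cells passed under all 5 other settings tried (adjusted p from 0.000399 to 0.0472) and without J82 CD44v6 replicate 1 (0.0235) or 3 (0.0369).

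The promoters of CDKN1A and CDKN2B are shown because these 2 inhibitors moved in opposite directions in J82 CD44 High and CD44v6. Both sequences are from RefSeq (GRCh38.p14), 5′ to 3′ on the gene's strand, and stop at the first base that GENCODE 29 counts as an exon of the gene. Capitals mark GC boxes, the letters GGGCGG on either strand.
CDKN1A, chr6:36678464-36678657, plus strand: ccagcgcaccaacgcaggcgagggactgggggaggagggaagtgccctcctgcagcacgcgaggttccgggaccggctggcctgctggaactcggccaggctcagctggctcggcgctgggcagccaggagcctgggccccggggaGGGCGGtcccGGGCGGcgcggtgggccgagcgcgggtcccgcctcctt
CDKN2B, chr9:22009364-22009555, minus strand: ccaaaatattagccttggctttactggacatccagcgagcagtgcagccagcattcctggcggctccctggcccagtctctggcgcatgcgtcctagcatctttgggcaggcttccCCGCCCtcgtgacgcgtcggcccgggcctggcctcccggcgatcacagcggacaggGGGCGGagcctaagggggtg

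Each of these stretches holds 2 GC boxes, which begin 104 and 94 bases before the RefSeq start in CDKN1A and 134 and 78 bases before it in CDKN2B. In the 250 bases before the start, CDKN1A had 4 matches and CDKN2B 2. A GC box occurred in 42.6% of 35116 RefSeq promoters of that length. At least 4 matches occurred in 7.63% of them and at least 2 in 24.3%. CCNE1 had 7, a number reached by 1.12%. Neither the E2F letters TTTCCCGC, TTTGGCGC or TTTCGCGC (2.32% of promoters), the CRE TGACGTCA (1.65%) nor the AP-1 letters TGACTCA (4.20%) were found on either strand in the 11 promoter entries matched to 8 of the 10 genes. CCND1 had no entry, and CCNE2 was not searched because entries on chromosome 8, where it lies, were left out. A match is a description of these letters and not of a bound site.

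CDKN2B moved opposite to CCND1 in J82. Its libraries were at 74.2, 71.6 and 67.4 CPM in parental cells and at 118, 115 and 121 CPM in CD44 Low. They were at 31.3, 37.0 and 39.6 CPM in CD44 High and at 51.1, 45.6 and 54.0 CPM in CD44v6. None of the 4 ranges overlapped, in the order CD44 Low, parental, CD44v6, CD44 High from high to low. CDKN2B rose by 0.73 on the log2 scale in CD44 Low against parental cells (1.66-fold, SE 0.10, adjusted p = 0.00103). It fell by 0.98 in CD44 High (SE 0.10, adjusted p = 0.000641) and by 0.50 in CD44v6 (adjusted p = 0.0247). CD44 High was 3.27-fold lower than CD44 Low (-1.71, SE 0.10, adjusted p = 3.8e-07), and CD44v6 2.34-fold lower (-1.23, adjusted p = 6.59e-06). CD44v6 exceeded CD44 High by 0.48 (SE 0.10), which did not pass (adjusted p = 0.201) except in DESeq2 (0.00246).

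The decrease of CDKN2B in CD44v6 against parental cells held in 1 of 6 fits that left out a library, the one without CD44v6 replicate 3 (adjusted p up to 0.136 in the others). With only the 6 libraries compared it came to 0.0564. The other called CDKN2B differences held in every fit run. Its antisense partner CDKN2B-AS1 was at 16.5 ± 3.84 CPM in CD44 Low and 9.32 ± 1.60 CPM in CD44 High, and without knowing the use of strand the reads of the pair cannot be told apart. CDKN2A, the neighbouring inhibitor gene, averaged 185 ± 7.24 CPM in parental J82 and 183 ± 18.8 in CD44 Low, against 146 ± 6.53 in CD44 High and 141 ± 13.0 in CD44v6. From CD44 Low to CD44 High it fell by 0.32 on the log2 scale (SE 0.10, adjusted p = 0.0383). That CDKN2A call was lost without CD44 Low replicate 2 or 3 or without any 1 CD44 High library.

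CDKN1B, the p27 inhibitor, passed in no comparison. Its J82 libraries were at 60.6, 56.4 and 57.6 CPM in parental cells and at 61.4, 45.7 and 63.5 CPM in CD44 Low. Those of CD44 High were at 48.8, 36.2 and 50.1 CPM and those of CD44v6 at 49.96, 31.5 and 45.6 CPM. Replicate 2 was the lowest library of each of the 4 groups. Log2 fold changes of CD44v6 were -0.46 against parental cells (SE 0.18, adjusted p = 0.189) and -0.42 against CD44 Low (adjusted p = 0.176). With the replicate number as a block these became -0.48 (adjusted p = 0.0395) and -0.43 (adjusted p = 0.0343). The labels do not say that a number pairs samples. In RT-112 CDKN1B ran from 54.6 to 72.0 CPM.

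Against parental cells, CD44 Low gave 4 called genes in J82 (CDKN2B higher; CCND1, CCND3 and CCNE2 lower), beside 5.34% of all genes (2.26% higher, 3.08% lower). CD44 High gave 4 (CCND1 and CDKN1A higher, CCNE2 and CDKN2B lower), beside 2.94% (1.71% and 1.23%), and CD44v6 gave 3 (CCND1 and CDKN1A higher, CDKN2B lower), beside 2.60% (1.86% and 0.740%). These comparisons share the parental libraries. For CD44v6 against CD44 Low the called genes were CCND1, CCND3 and CDKN1A (higher) and CDKN2B (lower), beside 9.58% (6.18% and 3.40%). In RT-112 no gene of the 9 was called against parental cells in CD44 Low, CD44 High or CD44v6, beside 3.20% (1.33% higher, 1.87% lower), 0.511% (0.249% and 0.262%) and 0.614% (0.288% and 0.326%) of all genes. At an unadjusted p under 0.05 there were 1, 2 and 1, beside 18.9%, 12.3% and 15.3% of all genes. DESeq2 called 0, 0 and 1, and its share of all genes is not given here. CD44v6 against CD44 Low gave 1 of 9 in RT-112, CCND1, beside 16.0% (7.97% higher, 8.03% lower).

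Between CD44v6 and CD44 High, the 2 kinds of line with more CD44, 0 of the 10 genes in J82 and 0 of the 9 in RT-112 passed edgeR's test, which called 0% of all genes in both. At an unadjusted p under 0.05, J82 had 3 such genes and RT-112 had 0, beside 9.63% and 4.25% of all genes. DESeq2 called 2 in J82, CCNE2 (0.53, adjusted p = 0.0352) and CDKN2B (0.49, adjusted p = 0.00246), and 0 in RT-112. The share of all genes that DESeq2 called is not given here. Its counts therefore cannot be set against the shares from edgeR.

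Of the 9 genes with counts in both lines, tests of the line difference called 2 from CD44 Low to CD44 High, CCND1 and CDKN1A, beside 10.7% of 17438 genes (6.24% more positive in J82, 4.42% more negative). They called 3 for CD44v6 against CD44 Low, CCND1, CCNE2 and CDKN1A, beside 7.52% (4.56% and 2.96%). CD44 Low against parental cells gave 1 (CCND1, beside 1.06%, as 0.304% and 0.757%) and CD44 High against parental cells gave 1 (CDKN1A, beside 0.241%, as 0.178% and 0.0631%). CD44v6 gave 0 against parental cells (beside 0.138%, as 0.0688% and 0.0688%) and 0 against CD44 High (beside 0.00573%). At an unadjusted p under 0.05 these 2 comparisons had 3 and 2, beside 14.4% and 9.44% of all genes. DESeq2 called 1 and 0, and its share of all genes is not given here.

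Of 23 other genes of G1 control and S-phase entry, 22 were tested in J82 and 21 in RT-112. For CD44 High against CD44 Low 5 were higher and 2 lower in J82, and 9 higher and 1 lower in RT-112, with a median log2 fold change of 0.05 and 0.30. Of all genes 8.83% were higher and 6.90% lower in J82, and 9.01% and 7.02% in RT-112. With 1 library left out, the called genes of the list numbered 4 to 6 in J82, against 7, and 4 to 11 in RT-112, against 10. They were 4 in J82 without any 1 library but CD44 Low replicate 3, and 4 to 6 in RT-112 without CD44 Low replicate 1 or 2 or CD44 High replicate 1. The share of all genes called also changed with 1 library left out. It ran from 9.64% to 13.9% in J82, against 15.7%, and from 7.62% to 19.6% in RT-112, against 16.0%. E2F4, E2F7, TFDP1, CKS1B and CCNA2 were higher in both lines. E2F7, an E2F family repressor, rose by 0.64 in each line (adjusted p = 0.00364 and 0.00275). CCNA2, cyclin A2, rose by 0.65 and 0.48 (adjusted p = 0.00571 and 0.0231). CKS1B, a cofactor in the degradation of p27, rose by 0.56 and 0.57 (adjusted p = 0.0321 and 0.00275). TFDP1, the dimer partner of E2F proteins, rose by 0.32 and 0.41, and E2F4 by 0.38 and 0.25 (adjusted p up to 0.0460).

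Among the remaining inhibitors and partners, CCND2 (cyclin D2) had 0 counts in 23 of 24 libraries and 4 counts in J82 CD44 Low replicate 2. CDK2, the partner of cyclin E, was at 108 to 125 CPM over the J82 group means and at 145 to 192 CPM over those of RT-112. From CD44 Low to CD44 High it fell in RT-112 and not in J82 (RT-112 log2 fold change -0.37, SE 0.09, adjusted p = 0.0144), and the line difference of 0.60 passed (adjusted p = 0.00382). The RT-112 call of CDK2 was lost without CD44 Low replicate 1 or 2 or CD44 High replicate 1. CDKN2C (p18) was at 30.7 ± 4.55 CPM in parental J82 and 16.4 ± 0.721 CPM in parental RT-112. CDKN2D (p19) was at 3.96 ± 0.444 and 7.64 ± 0.319 CPM, and CDKN1C (p57) at 0.178 ± 0.161 and 0.927 ± 0.243 CPM.

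Of 16 E2F target genes of DNA replication and nucleotide supply, 3 were higher and 2 lower in J82 CD44 High than in CD44 Low, and 5 higher and 1 lower in RT-112 (median log2 fold change -0.01 and 0.16), beside the same shares of all genes, 8.83% and 6.90% in J82 and 9.01% and 7.02% in RT-112. The called genes numbered 3 in J82, against 5, without CD44 Low replicate 1 or 2 or CD44 High replicate 1. In RT-112 they numbered 2 or 3, against 6, without any 1 CD44 Low library or CD44 High replicate 1. Of all genes 9.74% to 11.8% were called in those J82 fits, against 15.7%. The RT-112 fits called 7.62% to 15.1% of all genes, against 16.0%. CDK1, TK1 and RRM1 were higher in both lines and MCM6, a subunit of the replicative helicase, was lower in both. In J82 CDK1, the mitotic kinase, rose by 1.19 (adjusted p = 9.14e-05); its rise in RT-112 was 0.82 (adjusted p = 0.00399). MCM6 fell by 0.61 and by 0.49 (adjusted p = 0.0355 and 0.0469). Its RT-112 call was lost without CD44 Low replicate 1 or 2 or CD44 High replicate 1 or 3. In J82 only 1 of the 2 lower genes, MCM3 and MCM6, stayed called without CD44 Low replicate 1 or 2 or CD44 High replicate 1 or 3.

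Of 18 p53 target genes, set beside CDKN1A, 3 were higher and 0 lower in J82 CD44 High than in CD44 Low, while 0 were higher and 8 lower in RT-112. The J82 share of 16.7% was close to that of all genes, 15.7%, and the RT-112 share was 44.4%, beside 16.0% (7.02% lower). The medians were 0.07 and -0.54 on the log2 scale, beside -0.02 and 0.02 over all genes. The 3 in J82 were DDB2 (0.84, adjusted p = 0.000112), FAS (0.92, adjusted p = 0.0458) and PHLDA3 (0.62, adjusted p = 0.0373), named after their values were seen. PHLDA3 was the one p53 target called in both lines, with opposite signs (-0.66 in RT-112, adjusted p = 0.0163). The test of the difference between the lines called 8 of 18, all with the higher change in J82, beside 10.7% of all genes. For CD44v6 against CD44 Low 1 was higher in J82 (DDB2, 1.05, adjusted p = 2.25e-05) and 7 were lower in RT-112, beside 9.58% of all genes in J82 (6.18% higher) and 16.0% in RT-112 (8.03% lower).

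The p53 target counts changed when single libraries were left out, as did the share of all genes called. In RT-112 CD44 High the summed level of the 18 genes ran from 869 to 1256 CPM, and replicate 3 stood above the other libraries for MDM2 (176, 171 and 299.7 CPM), FAS (18.2, 17.6 and 37.1 CPM), RRM2B (46.7, 35.1 and 77.6 CPM) and ZMAT3 (23.7, 22.2 and 45.3 CPM). These 4 were chosen after their values were seen. Against CD44 Low, 13 of 18 were lower without that replicate, 2 without CD44 Low replicate 1, 5 without CD44 Low replicate 2 and 3 without CD44 High replicate 1. Of all genes 19.6%, 8.52%, 9.34% and 7.62% were called in those fits, against 16.0% with all libraries. The J82 count of 3 became 1 without CD44 Low replicate 2 or 3 or CD44 High replicate 1 or 2. There 9.64% to 13.9% of all genes were called, against 15.7%. For CD44v6 against CD44 Low in RT-112 the count of 7 became 1, 3 and 4 without CD44 Low replicates 1, 2 and 3. It became 3 and 2 without CD44v6 replicates 1 and 3. The shares of all genes were 7.33%, 8.85%, 13.9%, 11.9% and 6.22%, against 16.0%. Every p53 target called in these fits was higher in J82 or lower in RT-112.

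**Figure D4:**
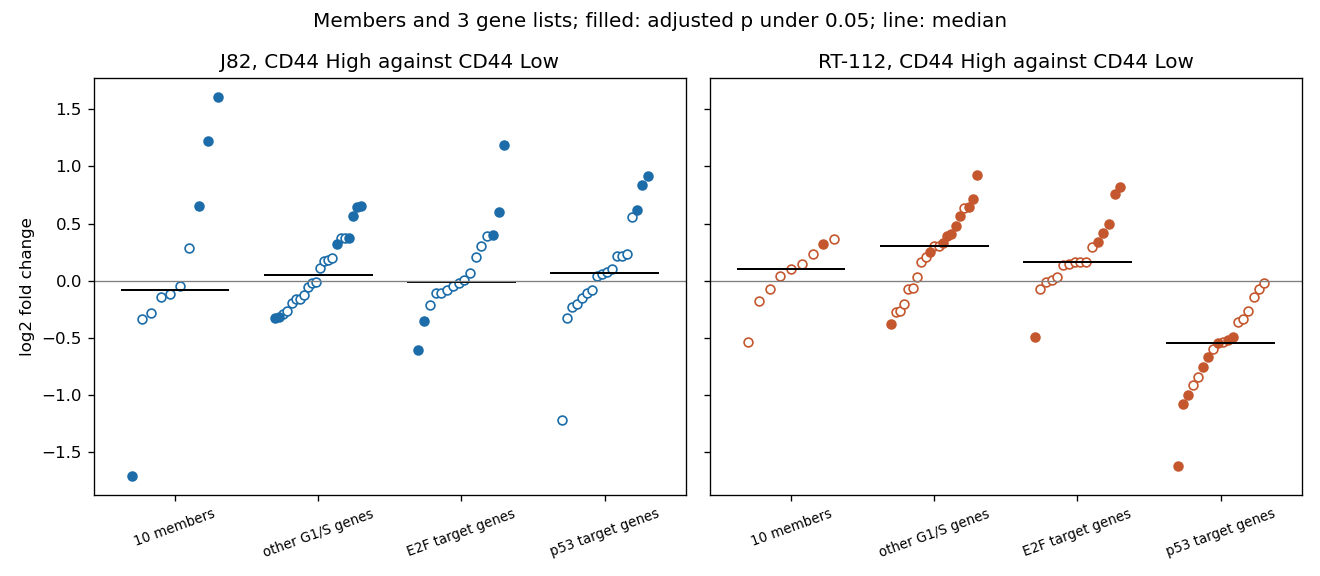
Log2 fold change of CD44 High against CD44 Low (vertical axis) for the 10 genes and the 3 lists, each point a gene sorted by value, in J82 (left) and RT-112 (right). Filled points have an adjusted p under 0.05 and the black line is the list's median. The p53 targets all lie below 0 in RT-112, with a median of -0.54, and around 0 in J82, with a median of 0.07.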

How the data were processed

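Raw counts, deposited by the authors as 1 table with a row per gene symbol and without normalization, covered 24 libraries (16752825 to 24419670 counts each). HISAT2, StringTie and the build GRCh37 are named, per the submitters' processing notes, with no role or order. The counting program, its annotation and its use of strand are not given in the sources used here. Gene coordinates are therefore not given, except for RefSeq sequences on GRCh38.p14. StringTie can also estimate counts, and that was not told apart from direct counting. The extraction kit and the sequencing service are given in the labels' protocols.

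The main tests used edgeR 4.0.16 under R 4.3.3, with filterByExpr, TMM scaling and quasi-likelihood F-tests, two-sided, with Benjamini-Hochberg adjustment over all genes tested and a threshold of 0.05. The 12 libraries of a line formed 1 fit, with the 4 groups and no covariate. Differences between the lines, the comparison of parental lines and all CPM levels came from the 24 libraries. The alternatives were median-of-ratios (RLE) scaling, no filter, a mean of at least 50 counts, DESeq2 1.42.0, a replicate block, other sets of libraries, and leaving out each library, which was extended to the list counts after the data were seen.

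The genes and lists were chosen with earlier results of these data known. Of the lists, the text names those that passed, with 1 sign, in J82 and in RT-112 for CD44 High against CD44 Low, CDK2, CCND2 and the other inhibitors whatever their values, and others where stated. P-values measure the spread between replicates whose culture history the labels do not give. All 24 pairs of replicates differed by more than counting noise (chi-square over its degrees of freedom, 6.42 to 63.7). Pairing by replicate number was checked from the correlation of deviations: all 3 exceeded 0.1 only for J82 CD44v6 against CD44 High (0.113, 0.109 and 0.252), from the data and not the labels, and the block changed no call there.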

Additional observations from a re-analysis of the deposited data

Results flagged for a closer look

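The response of a gene to the same comparison differed between J82 and RT-112, by the interaction test over all 24 libraries, in 7 cases. CCND1 differed by -0.98 on the log2 scale for CD44 Low against parental cells, by 1.31 for CD44 High against CD44 Low and by 1.21 for CD44v6 against CD44 Low. CDKN1A differed by 1.65 for CD44 High against parental cells, by 1.78 for CD44 High against CD44 Low and by 1.63 for CD44v6 against CD44 Low. CCNE2 differed by 0.79 for CD44v6 against CD44 Low. Several of these share the CD44 Low libraries of each line, so they are not independent of each other. With a library left out, CDKN1A for CD44 High against parental cells held in 6 of 12 fits and CCNE2 in 5 of 12. Of all genes, 10.7% and 7.52% were called for CD44 High and CD44v6 against CD44 Low. Against parental cells the shares were 1.06% for CD44 Low and 0.241% for CD44 High.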

How the results depend on the processing

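In J82, 4 genes stayed called for CD44 High against CD44 Low in each fit that left out a library, and 4 or 5 under the 7 other settings. Of all genes 9.64% to 13.9% were called with a library left out, against 15.7%. Counts of called genes that moved were as follows. For J82 CD44 Low against parental cells the count of 4 became 2 without a filter and 2 with all 24 libraries. For J82 CD44v6 against parental cells 3 became 1 with the 6 libraries compared, and for J82 CD44v6 against CD44 High 0 became 2 in DESeq2. In RT-112 the count of 0 for CD44 Low against parental cells became 1 with the 6 libraries compared, and that for CD44v6 against parental cells became 1 in DESeq2 and 1 with the 6 libraries. For RT-112 CD44 High against CD44 Low 1 became 2 with a mean of at least 50 counts, 2 in DESeq2 and 0 with the 6 libraries. For RT-112 CD44v6 against CD44 Low 1 became 0 without a filter, 0 with the replicate block and 0 with the 6 libraries. The difference between the lines for CD44v6 against parental cells went from 0 to 1 (CDKN1A) with RLE scaling, no filter, a mean of at least 50 counts, the replicate block and DESeq2. The shares of all genes called under these other settings are not given here. Whether a change was particular to these genes therefore cannot be read from the counts. The cause of these changes was not tested.

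With 1 library left out, counts ran from 2 to 4 (J82 CD44 Low against parental), 3 to 3 (CD44 High against parental), 1 to 4 (CD44v6 against parental) and 3 to 5 (CD44v6 against CD44 Low). They ran from 0 to 2 in RT-112 for CD44 High and for CD44v6 against CD44 Low. Of all genes 7.62% to 19.6% and 6.22% to 13.9% were called in these RT-112 fits. For J82 CD44v6 against CD44 Low that share was 6.26% to 10.4%. For the differences between the lines the counts ran from 0 to 1 (CD44 High against parental, CD44v6 against parental, CD44v6 against CD44 High) and from 2 to 3 (CD44 High and CD44v6 against CD44 Low). For comparisons with parental cells and for line differences, the share of all genes with a library left out is not given here. Those counts therefore do not separate a change in these genes from a change over all genes. No called value changed sign under any setting. Beyond the CDKN1B calls in J82, CCND1 in RT-112 and the CDKN1A line difference, the replicate block changed no call of the 10 genes. CDKN2B had 0 of the 242049958 counts in the 12 RT-112 libraries. Depth there limits how large its fold difference between the lines can be stated, as 3 counts correspond to 0.129 to 0.176 CPM.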

Other observations

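Against parental cells, 3 of 18 p53 target genes were higher in J82 CD44v6 and 0 lower, beside 1.86% and 0.740% of all genes. In J82 CD44 High 1 was higher and 0 lower, beside 1.71% and 1.23%. In CD44v6 they were MDM2, the ubiquitin ligase of p53 (0.74, SE 0.18, adjusted p = 0.0467), SESN2, a stress-response gene (0.98, SE 0.21, adjusted p = 0.0307), and DDB2, a DNA damage sensor (0.57, SE 0.10, adjusted p = 0.0130). In CD44 High it was PHLDA3 (0.76, SE 0.18, adjusted p = 0.0442). Replicate 2 of J82 CD44v6 stood above the other libraries for MDM2 (129.5, 214.6 and 122.7 CPM) and SESN2 (11.93, 20.71 and 12.94 CPM). It did not for DDB2 (25.22, 24.70 and 23.42 CPM). Calls of p53 target genes against parental cells were not checked with a library left out. SESN2 was also higher in J82 CD44 Low (0.97, SE 0.21, adjusted p = 0.0169), where DDB2 fell by 0.48 (adjusted p = 0.0150). Between the parental lines 1 of the 18 was higher and 15 were lower in J82, beside 31.0% and 31.0% of all genes. All these genes were named after their values were seen, and the comparisons share the parental libraries.

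Within RT-112 CD44 High, replicate 2 had the highest CCND3 (36.7 CPM) and CDKN1A (103 CPM) and the lowest CDK6 (39.1 CPM) and RB1 (52.9 CPM) of the 3 libraries.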
